A study of Homo sapiens with 4 samples.

Results

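The genes described here are the 8 members of the plasminogen activator system and of the initiation of coagulation around tissue factor that were followed in IMR90 cells, primary human fetal lung fibroblasts with a finite life span in culture. They were the activators PLAU and PLAT, the receptor PLAUR, the inhibitors SERPINB2 and SERPINE2, the tissue factor gene F3, the thrombomodulin gene THBD and the thrombospondin-1 gene THBS1. They were listed by name, with earlier results of these data known, and each of the 8 matched 1 gene on a primary chromosome among the 63677 genes of the count tables. All 8 were among the 15398 genes that passed the filter on low counts. mRNA was sequenced from 2 control libraries, transfected with a non-targeting siRNA (NTC), and from 2 HMGB1 knockdown libraries, transfected with siRNA against HMGB1, a DNA- and RNA-binding chromatin protein. The cells of every library were at passage 5, were transfected with RNAiMAX and were collected after 72 h. The IMR90 isolate I90-10 gave replicate 1 of each group and I90-79 gave replicate 2, with 1 library per isolate and group. The study's methods name 2 siRNAs for IMR90, and the labels do not say which of them entered a library. Levels are given as CPM, the reads of a gene per 1000000 counted reads, computed from the raw counts after TMM scaling, and levels of different genes are set against each other only as RPKM, the CPM per kilobase of exon.

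Plasminogen activators cut plasminogen, which is held on fibrin or on the cell surface, into plasmin, a protease that dissolves fibrin and matrix proteins. Urokinase, the product of PLAU, acts mainly at the cell surface, where the receptor encoded by PLAUR holds it, and serpins form covalent complexes with the activators that are then taken up by endocytic receptors. Tissue factor starts coagulation by binding factor VIIa, whereas thrombomodulin turns thrombin from a clotting enzyme into an activator of protein C. In fibroblasts these genes are known for pericellular proteolysis and wound repair, and several of them belong to the secretory program of senescent cells.

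Promoter sequences, from 250 bases before to 50 bases after the start of a transcript, were found in the RefSeq table of GRCh38.p14 for 6 of the 8 genes, with 8 promoters in all. PLAT and THBD had no entry. The AP-1 motif TGANTCA, searched on both strands, occurred in the promoters of 3 of these genes, F3, SERPINB2 and PLAUR, and was not matched in those of PLAU, SERPINE2 and THBS1. These 3 genes had a single promoter each, so 3 of the 8 promoters held the motif, beside 7.71% of all 35116 promoters of the table. The motif was chosen with earlier results of these data known, so this share is not independent evidence about it. The stretches are shown because they are where the promoters of F3, SERPINB2 and PLAUR share letters. Each is 30 bases long and is written in the direction of transcription, with the letters of the motif in capitals.
F3: gcggtTGAATCActggggTGAGTCAtccct
SERPINB2: gagtaaaatgtTGAATCActcaaaggacac
PLAUR: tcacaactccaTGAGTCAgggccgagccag

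The stretch of F3 is at chr1:94541958-94541987 on the minus strand and holds 2 matches, which begin 223 and 210 bases before the start site. The stretch of SERPINB2 is at chr18:63887592-63887621 on the plus strand and its match begins 102 bases before the start site. In PLAUR, at chr19:43670337-43670366 on the minus strand, the match begins 186 bases before the start site. The matches of F3 and SERPINB2 that begin 223 and 102 bases upstream have the same 7 letters. No promoter of the 6 genes held the CRE motif TGACGTCA, found in 1.85% of all promoters. None held a match to the NF-kB pattern searched, which begins with GGG and was found in 5.91%. NF-kB sites that depart from this pattern were not looked for. The GC box GGGCGG, found in 45.0% of all promoters, occurred in those of F3, SERPINE2 and THBS1 and in 1 of the 2 of PLAU, with no match in SERPINB2 and PLAUR. These are matches of letters, and binding at them was not measured here.

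The genes lie on different chromosomes. In hg19 coordinates of the count tables, F3 (ENSG00000117525) was counted over chr1:94994781-95007356 on the minus strand, SERPINE2 (ENSG00000135919) over chr2:224839829-224904036 on the minus strand, and PLAT (ENSG00000104368) over chr8:42032236-42065242 on the minus strand. PLAU (ENSG00000122861) spanned chr10:75668935-75677255 on the plus strand and THBS1 (ENSG00000137801) chr15:39873280-39891667 on the plus strand. SERPINB2 (ENSG00000197632) spanned chr18:61538926-61571124 on the plus strand, PLAUR (ENSG00000011422) chr19:44150247-44174699 on the minus strand, and THBD (ENSG00000178726), whose exonic sequence is 1 unbroken stretch, chr20:23026270-23030378 on the minus strand. Of the exonic bases of PLAU, 31.1% are shared with C10orf55 on the opposite strand, 19.9% of those of SERPINB2 with SERPINB10 on the same strand, and 2.59% of those of THBS1 with an unnamed antisense gene.

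The libraries held 29869338 and 35317010 counted reads in the control group and 29861687 and 31086475 in the knockdown group, so that 1 read was worth between 0.0271 and 0.0346 CPM. HMGB1 itself was at 181 and 237 CPM in the control libraries and at 16.0 and 18.9 CPM in the knockdown libraries, a log2-fold change of −3.59 ± 0.19 (SE, n = 2 per group; adjusted p = 0.0075 in edgeR's quasi-likelihood test with Benjamini-Hochberg adjustment). This call was lost without knockdown replicate 1 (adjusted p = 0.0487) or replicate 2 (adjusted p = 0.0324), while the log2-fold change was −3.47 and −3.71. All 10 fibroblast markers examined were above 1 CPM in every library, with a summed level between 2312 and 4084 RPKM that was mostly collagen mRNA. With the isolate as a term in edgeR, THY1 (log2-fold change −0.99, adjusted p = 3.1e-04) and PDGFRB (−0.68, adjusted p = 0.0026) of this list were downregulated and LUM (0.83, adjusted p = 0.0029) was upregulated. Of the 4 endothelial markers matched, TEK was above 1 CPM throughout and CDH5 had 0 counts, with a summed level between 28.0 and 31.3 RPKM that was almost all TEK. VWF was counted with 40 and 34 reads in the control and 120 and 81 reads in the knockdown libraries, and KDR with 4 and 21 and then 5 and 25 reads. The 5 epithelial markers summed to between 0.200 and 0.276 RPKM, with KRT5 and SCGB1A1 at 0 counts, and the 5 leukocyte markers to between 0.0221 and 0.0959 RPKM, with LYZ and CD3E at 0 counts.

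Upon HMGB1 knockdown, the genes of both plasminogen activator inhibitors had higher levels in both isolates, SERPINB2 by the widest margin of the 8 genes, and so did PLAU, F3 and THBD. THBS1 had a lower level in both isolates. PLAT and PLAUR did not move in the same direction in the 2 isolates. Calls needed both an adjusted p under 0.01 and a log2-fold change of over 0.6 in either direction. In edgeR's fit without a term for the isolate, 0 of the 8 genes were called in either direction, where 0.0649% of all genes tested were called up- and 0.136% downregulated. At an unadjusted p below 0.05, 4 of the 8 genes (SERPINB2, SERPINE2, F3 and THBD) had a higher and 0 a lower level, against 28.3% of all genes in either direction. Each isolate gave a control and a knockdown library. When the replicate block, a term for the isolate, was added to the fit, SERPINB2, SERPINE2 and THBD were upregulated and THBS1 was downregulated. In that fit 6.68% of all genes were called up and 7.84% down.

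Other models of the same counts called different members. DESeq2 without further terms called SERPINB2 alone, where it called 10.0% of all genes. RUVs, which estimates a factor of unwanted variation from replicates, followed by DESeq2 also called SERPINB2 alone, where 10.3% of all genes were called. These 2 tools are the ones that the study's methods name. DESeq2 with the replicate block called PLAU, SERPINB2 and THBD up and THBS1 down, against 13.4% of all genes. The CPM of the groups did not overlap for 5 of the 8 genes, which is close to the 59.9% of all genes whose groups did not overlap. The change had the same direction in both isolates for 6 of the 8 genes (75%), compared with 78.3% of all genes. The median log2-fold change of the 8 genes was 0.64, and 0.69 with the replicate block, beside −0.0054 and −0.0034 over all genes tested. With 2 libraries per group, a two-sided exact permutation test of a single gene cannot give a p below 0.333. In these bulk libraries, a change in the share of cells that express a gene cannot be told apart from a change in its RNA per cell.

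**Figure D1:**
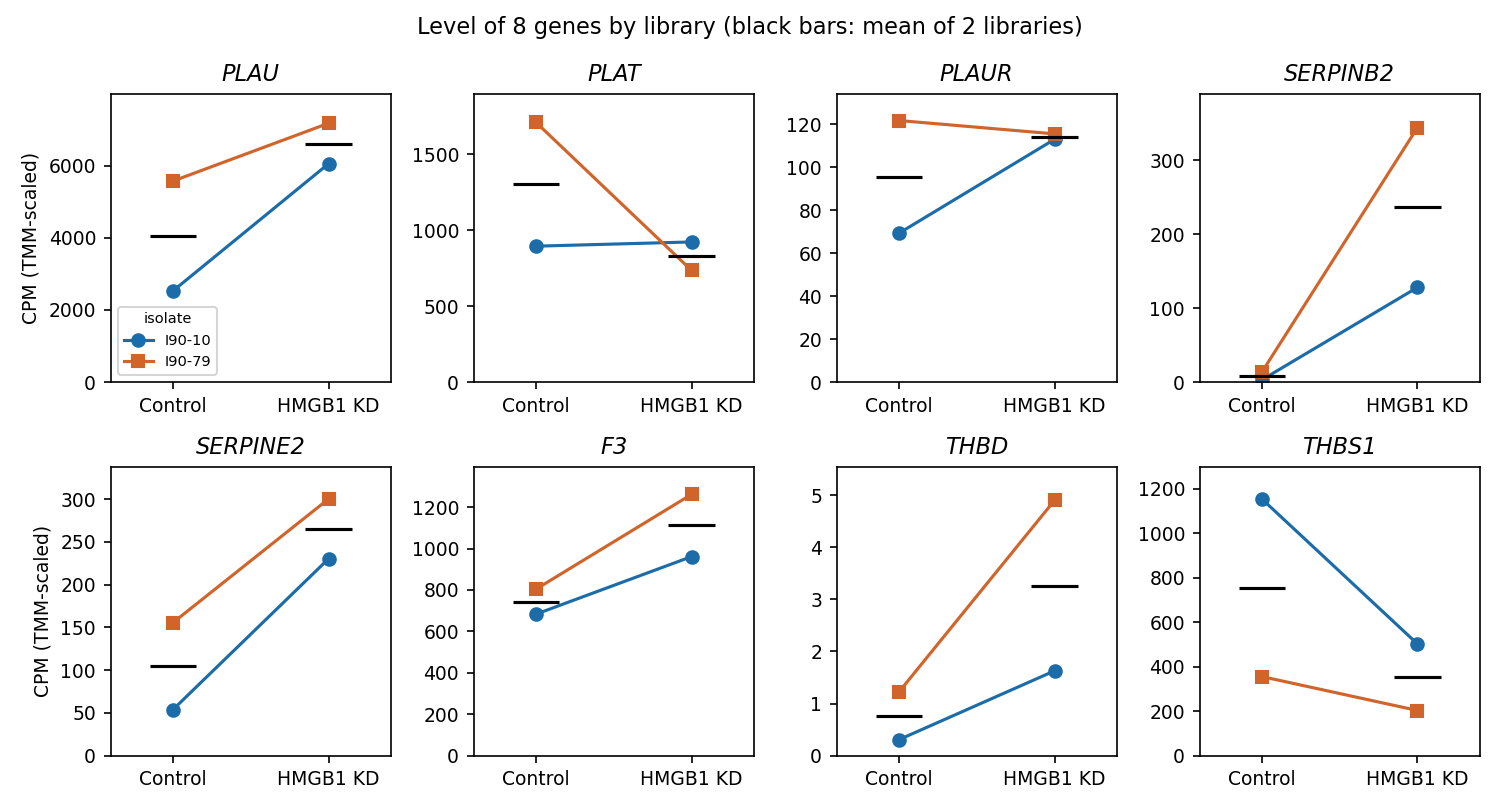
Level of each of the 8 genes in CPM (vertical axis, linear, starting at 0) in the control and the HMGB1 knockdown library of the isolates I90-10 (blue circles) and I90-79 (orange squares), with black bars at the mean of the 2 libraries. The lines of SERPINB2, SERPINE2, PLAU, F3 and THBD go up in both isolates, those of THBS1 go down in both, and those of PLAT and PLAUR part.

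PLAU, the gene of urokinase, was the most abundant of the 8 genes per length. It was at 2528 CPM in the control library of I90-10 and at 5572 CPM in that of I90-79. In the knockdown libraries it was at 6052 CPM in I90-10 and at 7173.5 CPM in I90-79, so that the groups did not overlap. Its RPKM ranked 22 among the 15398 genes tested in the control library of I90-10 and 3 or 4 in the other libraries. PLAU took 0.249% of the counted reads in the control library of I90-10 and 0.721% in the knockdown library of I90-79. The knockdown library held 2.39 times the level of the control library in I90-10 (95% counting interval 2.37 to 2.41) and 1.29 times in I90-79 (1.28 to 1.30). These intervals, exact for the ratio of counts and given for single pairs of libraries throughout, cover counting error only. The mean was 4050 ± 2152 CPM in the control and 6613 ± 793 CPM in the knockdown group (SD, n = 2). The log2-fold change was 0.71 ± 0.39 in edgeR (SE; adjusted p = 0.298) and 0.81 ± 0.19 with the replicate block (adjusted p = 0.0132), and PLAU passed the thresholds in neither edgeR fit. C10orf55, the antisense gene that shares exonic bases with PLAU, had 3.61 and 7.57 CPM in the control and 8.38 and 10.6 CPM in the knockdown libraries. Whether the reads of the pair were separated by strand is not given in the sources used here.

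PLAT, the gene of the tissue-type activator, differed between the isolates in its response. In I90-10 it was at 895 CPM in the control and at 923 CPM in the knockdown library, a ratio of 1.03 (95% counting interval 1.01 to 1.05). In I90-79 it was at 1710 and at 735 CPM, a ratio of 0.430 (0.424 to 0.437). The 3 libraries other than the control library of I90-79 were thus within 735 and 923 CPM, and the groups overlapped. PLAT had a log2-fold change of −0.65 ± 0.33 (adjusted p = 0.262), and −0.59 ± 0.25 under the replicate block (adjusted p = 0.109).

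Per length, urokinase mRNA exceeded that of the tissue-type activator in every library, and by more in the knockdown than in the control library of each isolate. The ratio of PLAU to PLAT in RPKM was 6.83 in the control and 15.9 in the knockdown library of I90-10. In I90-79 the ratio was 7.88 and 23.6. The ratio thus rested on a difference in PLAU in I90-10, where PLAT hardly differed, and on both genes in I90-79. No test was made of these ratios.

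PLAUR encodes the receptor that anchors urokinase to the cell surface. Its level was 69.3 CPM in the control library of I90-10 and between 113 and 122 CPM in the other 3 libraries. The knockdown to control ratio was 1.63 in I90-10 (95% counting interval 1.54 to 1.72) and 0.949 in I90-79 (0.908 to 0.992), and the groups overlapped. PLAUR had a log2-fold change of 0.26 ± 0.27 (adjusted p = 0.572), and 0.31 ± 0.17 under the replicate block (adjusted p = 0.193). Without the control library of I90-10 it was −0.093. PLAUR was far below its ligand in RPKM, with PLAU at 55.1 and 69.1 times PLAUR in the control and at 80.9 and 93.7 times in the knockdown libraries of I90-10 and I90-79.

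SERPINB2, also known as plasminogen activator inhibitor 2, encodes a serpin that inhibits urokinase and is largely kept inside the cell. It was counted with 92 reads in the control library of I90-10 and 501 reads in that of I90-79, and with 3704 and 10760 reads in the knockdown libraries. In CPM these were 3.13 and 13.6 in the control and 128 and 345 in the knockdown group. The groups did not overlap, and the lower knockdown library was well above the higher control library. The ratio within I90-10 was 40.9 (95% counting interval 33.3 to 50.9) and that within I90-79 was 25.3 (23.2 to 27.8). SERPINB2 moved from rank 11099 to rank 922 of the genes tested in I90-10, by RPKM, and from rank 6962 to rank 286 in I90-79.

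The mean of SERPINB2 was 8.36 ± 7.40 CPM in the control and 236 ± 153 CPM in the knockdown group (SD, n = 2), a spread that came from the higher level in I90-79 in both groups. Without the isolate in the model, SERPINB2 had a log2-fold change of 4.81 ± 0.85 (SE; adjusted p = 0.0362), which missed the threshold. With the replicate block it was 4.94 ± 0.17 (adjusted p = 9.8e-06), and SERPINB2 was upregulated. It also passed in edgeR without control replicate 1 (log2-fold change 4.12) and without control replicate 2 (6.24), and did not pass without knockdown replicate 1 (5.35, adjusted p = 0.0673) or knockdown replicate 2 (3.93, adjusted p = 0.0845). Its neighbour SERPINB10, which shares exonic bases with it, had 0 counts in all 4 libraries. Whether reads in the shared bases were counted for either gene is not given in the sources used here. The RPKM of SERPINB2 was computed over a length that includes these bases. SERPINB7, another gene of the cluster, was between 1.57 and 4.16 CPM.

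SERPINE2, the gene of protease nexin-1, encodes an extracellular serpin that inhibits thrombin, urokinase and plasmin. It was at 53.8 CPM in the control library of I90-10 and at 156 CPM in that of I90-79, and at 230 and 300 CPM in the knockdown libraries, with no overlap between the groups. The ratio was 4.28 within I90-10 (95% counting interval 4.05 to 4.52) and 1.93 within I90-79 (1.868 to 1.995). The group means were 105 ± 72.0 and 265 ± 49.5 CPM (SD, n = 2). In edgeR the log2-fold change was 1.34 ± 0.49 (adjusted p = 0.154). It was 1.51 ± 0.23 under the replicate block (adjusted p = 0.00198), which passed. SERPINE2 also passed in edgeR without control replicate 2, at 2.30 (adjusted p = 0.00208), and did not pass without control replicate 1 (0.77, adjusted p = 0.0878), knockdown replicate 1 (1.52, adjusted p = 0.229) or knockdown replicate 2 (1.14, adjusted p = 0.371).

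Set against urokinase per length, both inhibitor mRNAs were scarce in every library. SERPINB2 was at 0.00133 and 0.00262 of the RPKM of PLAU in the control libraries of I90-10 and I90-79, and at 0.0228 and 0.0516 in the knockdown libraries. SERPINE2 was at 0.00706 and 0.00926 of it in the control libraries and at 0.0126 and 0.0139 in the knockdown libraries. In the control libraries SERPINE2 was the more abundant of the 2 inhibitors, with 6.05 and 17.5 RPKM against 1.14 and 4.95 RPKM of SERPINB2. In the knockdown libraries the order was inverted, with 25.9 and 33.8 RPKM of SERPINE2 against 46.7 and 125 RPKM of SERPINB2.

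**Figure D2:**
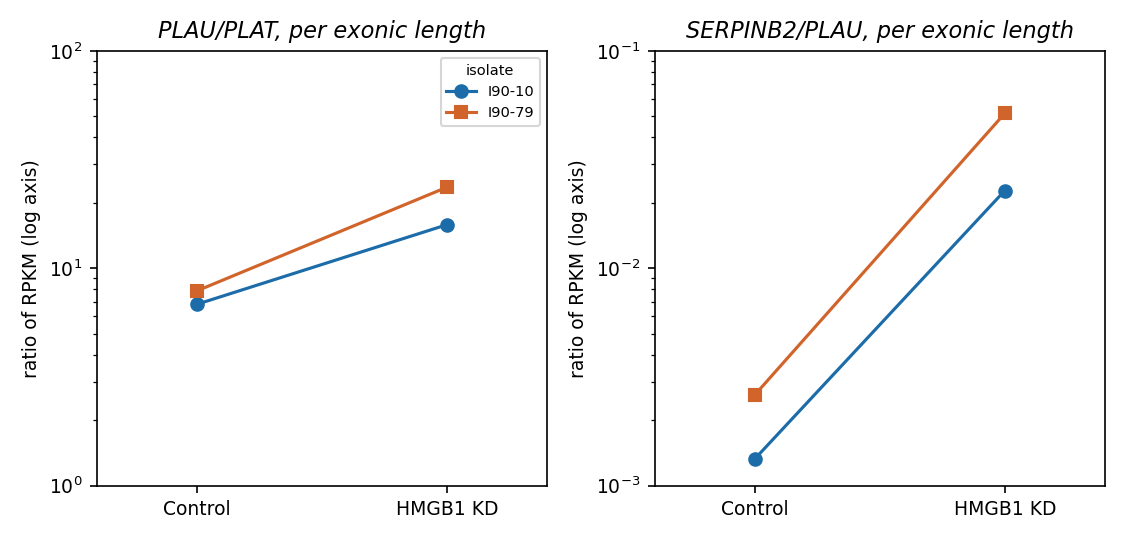
Ratio of the RPKM of PLAU to PLAT (left) and of SERPINB2 to PLAU (right) on log axes in the control and the HMGB1 knockdown library of I90-10 (blue circles) and I90-79 (orange squares). Both ratios are higher in the knockdown library of each isolate, from 6.83 to 15.9 and from 7.88 to 23.6 on the left.

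F3 encodes tissue factor, the membrane protein that starts coagulation. It was at 683 and 804 CPM in the control libraries of I90-10 and I90-79 and at 961 and 1262 CPM in the knockdown libraries, with no overlap. Of the 8 genes, F3 was the one with the most similar response in the 2 isolates, with ratios of 1.41 (95% counting interval 1.38 to 1.43) and 1.57 (1.55 to 1.59). The log2-fold change was 0.58 ± 0.19 (adjusted p = 0.128). With the replicate block it was 0.57 ± 0.098 (adjusted p = 0.00348), so that the adjusted p passed and the size of the change, below 0.6, did not. F3 was among the abundant mRNAs, ranking between 62 and 111 of the genes tested by RPKM.

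THBD, the gene of thrombomodulin, was the rarest of the 8 genes. It was counted with 9 and 45 reads in the control libraries of I90-10 and I90-79 and with 47 and 153 reads in the knockdown libraries, or 0.306, 1.22, 1.63 and 4.90 CPM. The groups did not overlap, but the control library of I90-79 and the knockdown library of I90-10 were close. The ratio was 5.31 within I90-10, with a wide counting interval of 2.57 to 12.3, and 4.01 within I90-79 (2.86 to 5.73). The log2-fold change was 2.06 ± 0.78 (adjusted p = 0.164). The replicate block gave 2.13 ± 0.31 (adjusted p = 0.00153), which passed. The endothelial marker VWF had a log2-fold change of 1.57 (adjusted p = 0.0681) and of 1.55 under the block (adjusted p = 0.0036), where it was upregulated like THBD, while TEK had −0.17 in both fits and CDH5 had 0 counts. The part of endothelial cells in the level of THBD was not tested. Per length, F3 exceeded THBD 3186-fold and 941-fold in the control libraries and 844-fold and 368-fold in the knockdown libraries.

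THBS1 encodes thrombospondin-1, a matrix glycoprotein that binds CD47 and can activate latent TGF-beta. It was the only one of the 8 genes with the lower level in I90-79 in both groups. In I90-10 it was at 1155 CPM in the control and 503 CPM in the knockdown library, 2.30-fold lower (ratio 0.435, 95% counting interval 0.427 to 0.444). In I90-79 it was at 356 and 203 CPM, 1.75-fold lower (ratio 0.571, 0.554 to 0.588). The knockdown library of I90-10 stood above the control library of I90-79, so the groups overlapped although both isolates moved down. The log2-fold change was −1.10 ± 0.66 (adjusted p = 0.332), and −1.01 ± 0.12 under the replicate block (adjusted p = 5.9e-04), which passed. After RUVs it was −0.21.

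The 6-base word GCAGTT, read on the transcribed strand, was looked for in the 3′ UTRs because it had drawn attention earlier in these data. THBS1 was the only one of the 8 genes to hold it, with 2 copies in a 3′ UTR of 4100 bases. It also had the longest 3′ UTR of the 8 genes, the others ranging from 314 bases in PLAUR to 2147 bases in THBD. They are printed with their surroundings of 30 bases each, in GRCh37 on the plus strand, with the word in capitals.
THBS1 site 1: cctcaagaaaatGCAGTTttcaaaaacaga
THBS1 site 2: aaggtggtgccaGCAGTTtttttttttcta

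Site 1 is at chr15:39887725-39887754 and its word begins at base 170 of the 3′ UTR, and site 2 is at chr15:39891008-39891037 and its word begins at base 3453. Among 12769 tested genes with an annotated 3′ UTR, 35.1% held the word. Their median log2-fold change was −0.16, compared with 0.071 for the genes without it. The word was chosen with earlier results of these data known, so this difference is not independent evidence about it. The genes with and without the word were not matched for the length of the 3′ UTR. HMGB1 held 3 copies in 4656 bases. The part of the word in the level of THBS1 was not tested.

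**Figure D3:**
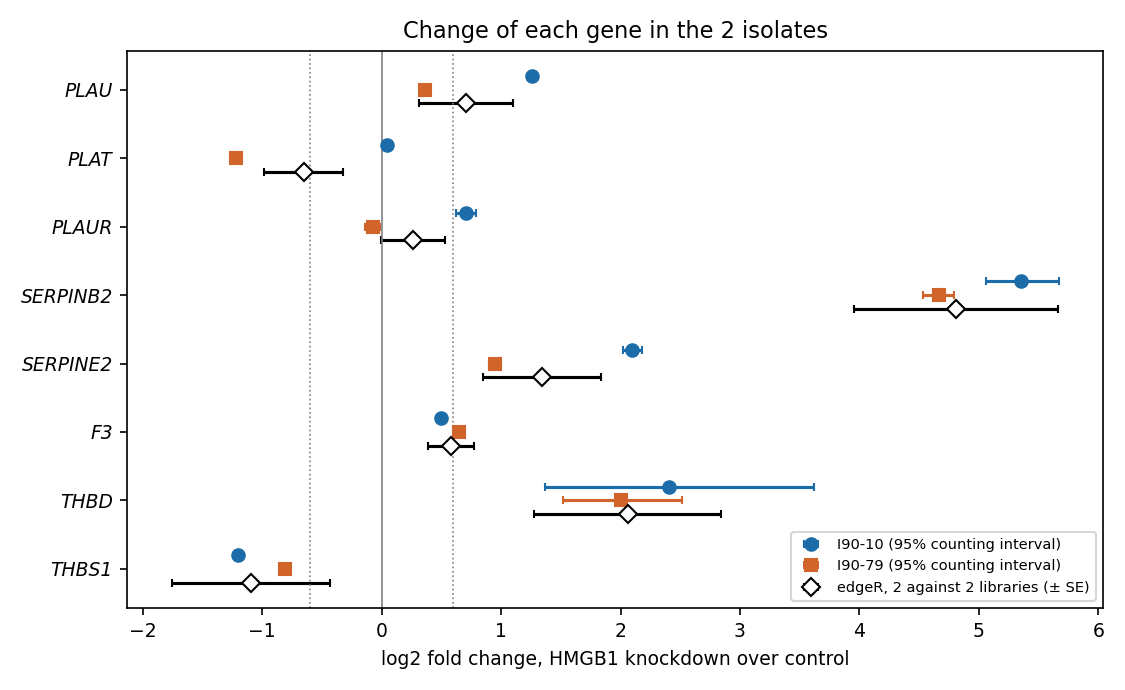
Log2-fold change of each of the 8 genes, HMGB1 knockdown over control, within I90-10 (blue circles) and I90-79 (orange squares) with 95% counting intervals, and in edgeR over 2 against 2 libraries (open diamonds, bars of 1 SE). Dotted lines mark the threshold of 0.6 in either direction, and SERPINB2 stands farthest to the right, at 4.81 in edgeR.

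The isolates differed in these genes before any knockdown. In the control libraries I90-79 had the higher level of 7 of the 8 genes, by 4.34-fold for SERPINB2, 3.99-fold for THBD, 2.89-fold for SERPINE2, 2.20-fold for PLAU, 1.91-fold for PLAT, 1.76-fold for PLAUR and 1.18-fold for F3, while THBS1 was 3.24-fold higher in I90-10. In the knockdown libraries the same isolate was the higher one for 7 of the 8 genes, the exception being PLAT. The differences were smaller there for SERPINB2 (2.69-fold), THBD (3.01-fold), SERPINE2 (1.30-fold), PLAU (1.19-fold), PLAUR (1.02-fold) and THBS1 (2.47-fold), and larger for F3 (1.31-fold). Each isolate was represented by 1 library per group, so these differences have no replicate check.

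By level per length the order of the genes in the control group was PLAU, F3, PLAT, THBS1, PLAUR, SERPINE2, SERPINB2 and THBD, taken from the group means. F3 was at 238 and 280 RPKM in the control libraries and PLAT at 125 and 240 RPKM, so these neighbours overlapped only in that the highest value of PLAT passed the lowest of F3. PLAT and THBS1 (106 and 32.7 RPKM) did not overlap, although the values of 125 and 106 RPKM within I90-10 were near each other. PLAUR (15.6 and 27.3 RPKM) and SERPINE2 (6.05 and 17.5 RPKM) overlapped. In the knockdown group PLAU (2051 and 2432 RPKM) and F3 (334 and 439 RPKM) were still followed by PLAT (129 and 103 RPKM), and SERPINB2 (46.7 and 125 RPKM) had come within the range of PLAT.

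Other genes of the pathway were examined from a list of 34, of which 29 were tested. In edgeR 0 of them were called in either direction without the isolate, where 10 of the 29 had an unadjusted p below 0.05 beside 28.3% of all genes. With the replicate block 4 of the 29 were up- and 2 downregulated, beside 6.68% and 7.84% of all genes, so that the share of calls was near that of all genes for the downregulated ones. Their median log2-fold change was 0.06, with 18 values above and 11 below 0. The 5 genes not tested were PLG, the gene of plasminogen itself, and F13A1, both with 0 counts, and SERPINA5, SERPINF2 and CPB2.

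By group, the genes that passed with the block were 3 of the 8 tested for coagulation and thrombin signalling, 2 of the 7 clearance receptors and chaperones and 1 of the 3 other protease inhibitors, groups too small to be read against the 6.68% and 7.84% of all genes. F2RL1, which encodes a protease-activated receptor cleaved by trypsin-like enzymes and by the tissue factor and factor VIIa complex, was at 19.2 and 22.9 CPM in the control and at 108 and 85.6 CPM in the knockdown libraries. Its log2-fold change was 2.20 ± 0.17 without the block (adjusted p = 0.0104), just short of the threshold, and 2.19 ± 0.15 with it (adjusted p = 6.4e-05). F2RL2, the gene of another protease-activated receptor, cleaved by thrombin, was at 114 and 79.3 CPM and then at 260 and 234 CPM, with log2-fold changes of 1.35 ± 0.20 (adjusted p = 0.0257) and 1.37 ± 0.12 (adjusted p = 1.4e-04). Both receptors were thus higher in both isolates, with no overlap between the groups.

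Among the clearance receptors, LRP8, a member of the LDL receptor family, was at 12.02 and 22.3 CPM in the control and 29.7 and 40.3 CPM in the knockdown libraries, with a log2-fold change of 1.07 ± 0.14 with the block (adjusted p = 8.3e-04). VLDLR, a receptor of the same family that takes up serpin complexes, was at 39.9 and 24.3 CPM and then at 19.9 and 17.0 CPM, a log2-fold change of −0.76 ± 0.14 with the block (adjusted p = 0.0048). The 2 family members thus went in opposite directions. Without the block the adjusted p was 0.116 for LRP8 and 0.125 for VLDLR. IGF2R, the most abundant of this group per length, had a log2-fold change of 0.23 ± 0.14 (adjusted p = 0.324).

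SERPINB8, a further intracellular serpin and the most abundant per length of the other inhibitors, was at 32.1 and 48.3 CPM in the control and 54.8 and 70.6 CPM in the knockdown libraries. It was upregulated with the block (0.66 ± 0.11, adjusted p = 0.0025) and not without it (0.64 ± 0.24, adjusted p = 0.155). GAS6, a vitamin K-dependent ligand of receptor tyrosine kinases, was at 428 and 149 CPM in the control libraries of I90-10 and I90-79 and at 213 and 102 CPM in the knockdown libraries. Its groups overlapped as those of THBS1 did, since I90-10 was the higher isolate in both, and it was downregulated with the block (−0.78 ± 0.12, adjusted p = 0.0023) and not without it (−0.87 ± 0.57, adjusted p = 0.372).

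Of the remaining genes, TFPI2, an inhibitor of tissue factor and plasmin found in the matrix, was by group means the most abundant per length among the genes of coagulation and thrombin signalling, although F2R exceeded it in the control library of I90-10 (124 against 75.8 RPKM). It was at 202 CPM in the control library of I90-10 and between 753 and 1390 CPM in the other 3 libraries, with a log2-fold change of 0.59 ± 0.81 (adjusted p = 0.674) and 1.04 ± 0.33 with the block (adjusted p = 0.0456). ENO1, a glycolytic enzyme that also binds plasminogen at the cell surface, was the most abundant plasminogen binder per length, with a log2-fold change of 0.43 ± 0.17 (adjusted p = 0.167), and 0 of the 4 tested genes of its group were called in either fit. CALR, a chaperone and surface partner of thrombospondin-1, was the most abundant per length among the thrombospondins and their receptors, of which 0 of 7 were called in either fit, with a median log2-fold change of −0.31. CALR itself had a log2-fold change of 0.08 ± 0.14 (adjusted p = 0.743).

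**Figure D4:**
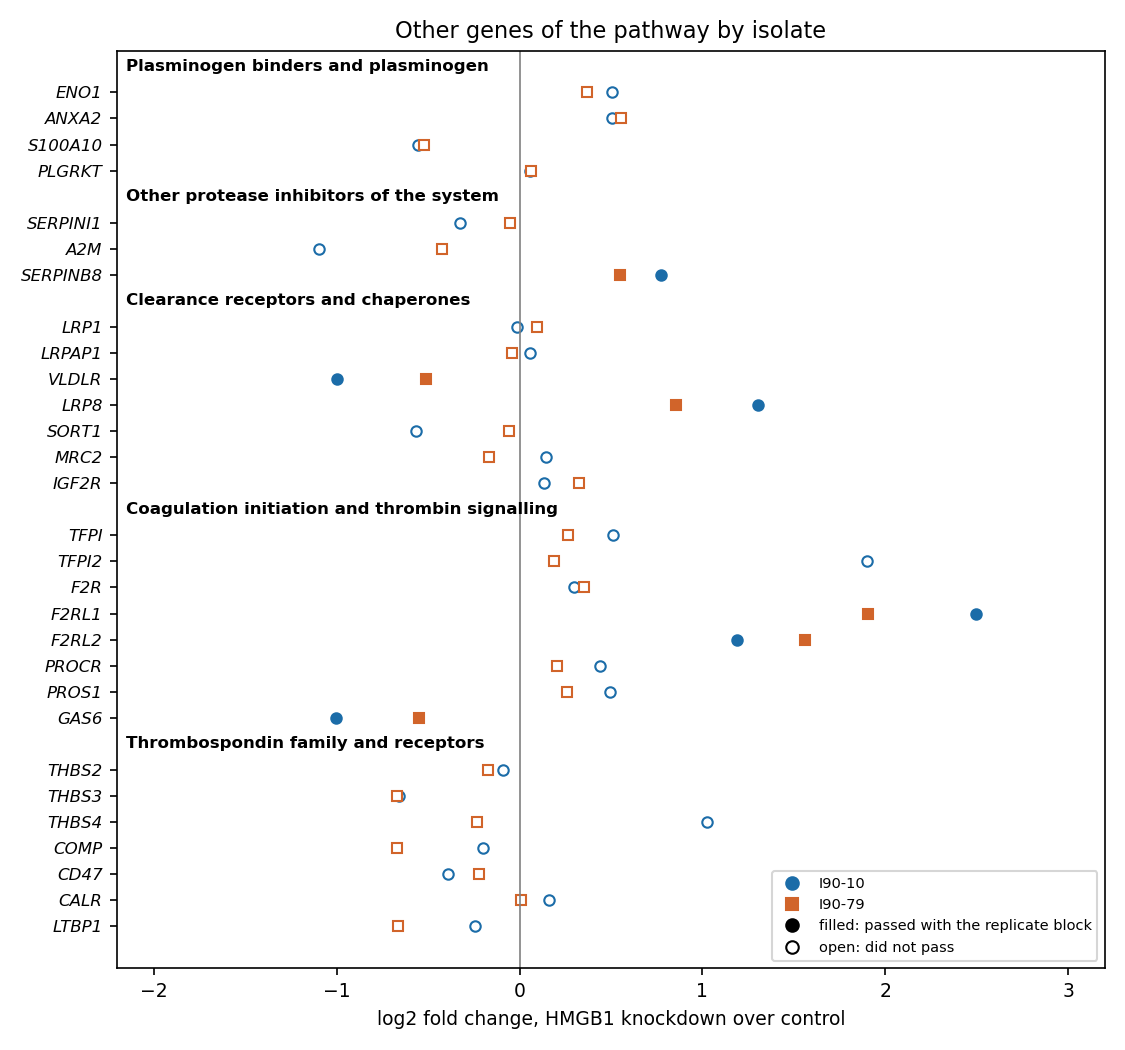
Log2-fold change within I90-10 (blue circles) and I90-79 (orange squares) of the 29 other pathway genes tested, in 5 groups, with filled symbols for genes that passed with the replicate block. F2RL1 stands farthest to the right in both isolates, VLDLR and GAS6 are filled on the left, and none of the thrombospondin family and receptor genes is filled.

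The profile of each gene over the 4 libraries was compared with those of the 12868 genes whose mean reached 1 CPM, by the Euclidean distance of the centred log2 CPM. With 4 libraries from 2 isolates, a short distance reflects the isolate as well as the knockdown, and it is given as a description. The profiles were not scaled, so genes that change little lie close together and a gene with a large change lies far from most. SERPINB2 had no near neighbour, the closest being IL1RL1, a receptor of the interleukin-1 family, at a distance of 0.51, NDNF at 0.86 and MMP10, a matrix metalloproteinase, at 1.11. IL1RL1 was at 0.238 and 1.55 CPM in the control and 12.05 and 24.7 CPM in the knockdown libraries. THBD was nearest to HTR7 (0.14), ENSG00000236453 (0.24) and IL1A (0.46), the gene of interleukin-1 alpha, which was at 6.60 and 32.2 CPM in the control and 34.5 and 81.4 CPM in the knockdown libraries.

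SERPINE2 was near to PKMYT1 (0.16) and SMOX (0.17), and PLAU was nearest to E2F2 (0.075), ENSG00000214776 (0.088) and its own antisense neighbour C10orf55 (0.096). The nearest profiles to PLAUR were those of EIF4A1 (0.057), DBF4B (0.060) and PTTG1 (0.074), and to F3 those of SERTAD1 (0.032), ENSG00000180015 (0.035) and ZNF891 (0.051). PLAT was nearest to TCF21 (0.18), PRR11 (0.21) and RHOF (0.21), and THBS1 to CPXM1 (0.22), ANK3 (0.24) and LOXL4 (0.24). Among the 8 genes themselves the closest pairs were F3 with PLAUR (0.55), PLAU with PLAUR (0.57) and F3 with PLAU (0.69). A short distance did not mean a shared direction. The log2-fold changes within I90-10 and I90-79 were 0.49 and 0.65 for F3, and 0.71 and −0.076 for PLAUR.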

How the data were processed

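mRNA of 2 control and 2 HMGB1 knockdown libraries of IMR90 was measured. The authors selected poly(A) RNA, prepared TruSeq libraries, sequenced paired ends, aligned them to hg19 by STAR and deposited raw counts of uniquely mapped reads per gene from featureCounts, without normalization. Tool versions, the strand setting and the counting of read pairs are not given in the sources used here.

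The raw counts were tested in edgeR 4.0.16 (R 4.3.3, limma 3.58.1) with filterByExpr, TMM factors between 0.968 and 1.04, the quasi-likelihood test and Benjamini-Hochberg adjustment over 15398 genes. The thresholds of the study's methods were used (adjusted p below 0.01, absolute log2-fold change above 0.6). Its methods name RUVs followed by DESeq2 and no term for the isolate. The main fit here also has no such term, but it is edgeR without RUVs and so not the study's own model. The replicate number is the isolate, which pairs the libraries. Over 15398 genes, the deviations of the paired libraries from their group means had a correlation of 0.464, so the result of a replicate block (isolate as a term) is given beside the main one. Without the block, the p-values measure the spread between 2 isolates, each cultured once per group as far as the labels say. With the block, they measure how far the change differed between the 2 isolates. That rests on 2 pairs of libraries and on a dispersion estimated with the help of other genes.

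The SE of a log2-fold change in edgeR was derived as its absolute value divided by the square root of the F statistic of the quasi-likelihood test. RPKM used the exonic length in the count tables. Counting intervals of ratios within an isolate are exact, at 95%. DESeq2 1.42.0, RUVs with 1 factor written from its published description (the number used in the study is not given in the sources used here), other scaling and filters and the omission of each library were alternatives. The scripts were tested on simulated data. Promoters came from the RefSeq table (GRCh38.p14), and 3′ UTRs from GENCODE annotation on GRCh37, the build of the counts. The genes named are the 8 members, HMGB1, other pathway genes called with or without the block, the most abundant tested gene per length of each pathway group, and the 3 nearest profiles of each member, of which 1 is not reported here. SERPINB7, SERPINB10 and C10orf55 were added as overlapping or neighbouring genes. The members, the gene lists, the motifs and the 3′ UTR word were chosen with earlier results of these data known.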

Additional observations from a re-analysis of the deposited data

Results flagged for a closer look

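For 2 of the 8 genes the log2-fold changes upon HMGB1 knockdown had opposite signs in the 2 isolates, with 1 isolate of each gene close to no change. PLAUR had a log2-fold change of 0.71 in I90-10 and of −0.076 in I90-79. PLAT had a log2-fold change of 0.044 in I90-10 and of −1.22 in I90-79. Each isolate was represented by 1 pair of libraries, and the difference between the isolates was not tested.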

How the results depend on the processing

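Counts of calls depended on the model, and the cause was not tested. Against 10 genes up- and 21 downregulated in edgeR over all genes, DESeq2 called 728 and 818, RUVs followed by DESeq2 764 and 829, edgeR with the replicate block 1028 and 1207, DESeq2 with that block 967 and 1091, edgeR with no filter on low counts 1118 and 1275, and an adjusted p below 0.05 gave 575 and 668. With at least 10 counts in every library 6 were upregulated. Without 1 library, 0 to 305 genes were up- and 0 to 337 downregulated, 0 of each without either knockdown library. Of the 8 genes, 1 was called up by DESeq2, 1 by RUVs and 1 at an adjusted p below 0.05, 3 up and 1 down with the replicate block in edgeR and likewise in DESeq2, 4 up and 2 down without the filter, and 0 to 2 up without 1 library. Of the other pathway genes, 2 were called up by DESeq2, 4 by RUVs, 2 at an adjusted p below 0.05, 4 up and 2 down with the block in edgeR and likewise in DESeq2, 5 up and 2 down without the filter, and 0 to 3 up without 1 library.

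By log2-fold change, the values that newly passed were those of PLAU (0.82 in DESeq2 with the block, 0.72 without the filter), PLAT (−0.64 without the filter) and SERPINE2 (1.51 with the block, 1.35 without the filter). SERPINB2 passed at 4.82 in DESeq2, 4.06 after RUVs, 4.94 with the block in edgeR, 4.97 with it in DESeq2 and 4.815 without the filter. THBD passed at 2.13 with the block, 2.18 with it in DESeq2 and 2.07 without the filter, and THBS1 at −1.01, −1.001 and −1.09 in the same order. The block changed no call of PLAU, PLAT, PLAUR, F3 or HMGB1 in edgeR. Without 1 library, the log2-fold change ranged from 0.24 to 1.39 for PLAU, −1.05 to −0.11 for PLAT, −0.093 to 0.72 for PLAUR, 3.93 to 6.24 for SERPINB2, 0.77 to 2.30 for SERPINE2, 0.37 to 0.76 for F3, 1.06 to 3.40 for THBD, −1.90 to −0.014 for THBS1 and −3.77 to −3.38 for HMGB1. The sign turned for PLAUR alone, without control replicate 1 (−0.093), and THBS1 was at −0.014 without the same library. Of 98 alternatives for 9 fold changes, 76 kept their direction and side of the threshold, and 7 of the 8 genes kept their sign throughout. THBD, with 9 counts in 1 library, could not be tested under the filter of 10 counts.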
